A study of Mus musculus with 23 samples.

Results

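The cytosolic ribosomal protein genes are the genes for the proteins of the 2 subunits of the ribosome that works in the cytoplasm. They were taken by gene symbol, as every gene named Rpl or Rps with a number and at most 1 letter a, x or l after it, plus Rplp0, Rplp1, Rplp2 and Rpsa. This gave 80 of the 23400 genes of the table, 49 for the large subunit and 31 for the small subunit. Each had 1 row, and each overlapped the locus of the same symbol in the GENCODE annotation.

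The series measured polyadenylated RNA in 23 single neurons of the mouse arcuate hypothalamus, a nucleus at the base of the brain that takes part in the control of feeding. The animals were 2 young adult males of mixed background that carried the alleles vGLUT2-IRES-Cre and loxSTOPlox-L10-GFP, and no cell was treated. Cre is made from the gene of the glutamate transporter VGLUT2 (Slc17a6) and switches on a GFP fused to ribosomal protein L10a, so that GFP also marks cells that used this gene only earlier in life. After papain digestion, cells with GFP were collected manually. All 23 cells form 1 group, the cells are not replicates, the mouse of each cell is not stated, and every value is therefore a description without a test. Titles begin with JCb6 for 8 cells and with JCb5.2 for 15 cells, and the labels do not say what these prefixes mean.

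A ribosome holds a small subunit that reads the messenger RNA and a large subunit that joins amino acids, and nearly all of its proteins are needed in equal numbers. Their mRNAs are among the most abundant in most cells and commonly begin with a run of pyrimidines, the 5′ terminal oligopyrimidine (TOP) tract, through which mTOR signalling controls their translation. In neurons these mRNAs are also found in axons and dendrites, and ribosomal protein L10a tagged with GFP is widely used to pull ribosomes out of a chosen cell type.

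The start of the gene was read for the members that have a promoter entry in RefSeq (build GRCm38.p6), which were 60 of 80. A start was counted as TOP when the first transcribed base was C and the next 4 were all C or T on the transcript strand. A gene with several annotated starts was counted when any of them met this rule, as with Rpl35a and Rps21, whose other starts did not. This held for 13 of 60 members, 21.7% (Clopper-Pearson 95% interval 12.1 to 34.2%, counting error only), and for 813 of 27025 genes of the RefSeq table, 3.01%. The same search on the opposite strand found 2 members, 3.33%, and 4.07% of all genes. With C and 6 following pyrimidines the shares were 16.7% of members and 1.29% of all genes, and with a tract beginning up to 5 bases either side of the start they were 46.7% and 21.2%. The 6 TOP starts below were picked from the 13 members that met the rule. They are those with the highest levels among the 13 (Rpl38, Rps27, Rpl35), a low level (Rps15a), the stalk protein Rplp2 and one of the lowest spreads between cells (Rpl14). Rpl41, Rps28, Rpl34 and Rpl37a, which are also among the 8 members with the highest levels, did not meet the rule. Both annotated starts of Rpl10a follow. Each line runs 5′ to 3′ on the transcript strand, from 5 bases before the annotated start to 24 bases after it, and capitals mark the pyrimidine tract that begins at the start or, for Rpl10a, the longest tract in the window.
Rpl38, chr11:114668575-114668604, plus strand: tcgttCTTTCCCCgttctcttcggttctca
Rps27, chr3:90213624-90213653, minus strand: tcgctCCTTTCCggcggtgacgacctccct
Rpl35, chr2:39005107-39005136, minus strand: ctttcCTCTTTCTCTCgaaccaggctgctt
Rps15a, chr7:118116123-118116152, minus strand: gccatCTTCCCTCgccggtgagtgagtgtt
Rplp2, chr7:141447646-141447675, plus strand: tcttcCTTTCgccgccggacgccgccgagg
Rpl14, chr9:120571512-120571541, plus strand: tctctCTTCTCgctgagcgccgccaacatg
Rpl10a, first annotated start, chr17:28328466-28328495, plus strand: cccagcggccgcaaactgcagcgCCTCTCC
Rpl10a, second annotated start, chr17:28328560-28328589, plus strand: agcgcatgcgcaaagcgctctgCCTTCTTT
Neither start of Rpl10a met the rule; its longest tracts began 18 bases after the first annotated start and 17 bases after the second. A match or its absence describes only the letters of these windows.

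Values are FPKM, fragments scaled by transcript length and library size, so levels of different genes are set side by side here. The order of levels depends on this length scaling, most of all for short genes such as Rpl41 (coding length 75 bp). Its part in the order was not tested. FPKM sums per cell ran from 379513 to 687511, the number of genes at or above 1 FPKM ran from 4054 to 8042. The steps between low values put the relative depths of the libraries within 4.23-fold of each other. No absolute depth was derived. Of 6 neuronal markers, 5 were at or above 1 FPKM in every cell, and Slc17a6 was so in 22 cells. Of 25 markers of glia, vessels and ependyma, 15 reached 1 FPKM in any cell and 1 (Vim) in at least 12 cells. Mog, Cldn5 and Rax were listed at 0 in every cell. The summed level of these markers was between 1.34 and 111 FPKM in JCb6 cells and between 4.56 and 425 FPKM in JCb5.2 cells, and that of haemoglobin genes and Alas2 ran from 44.2 to 2398 FPKM in JCb6 cells and from 3.45 to 622 FPKM in JCb5.2 cells.

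Cells 9 and 17 stood apart in the ribosomal protein genes, and results that rest on them are given with and without them. Cell 17, a JCb6 cell, had the fewest genes at 1 FPKM (4054), and the median log2(FPKM + 1) of the genes found in every cell was 4.88 there, against 5.97 to 6.73 in the other cells. It held the highest value of 45 of the 74 members found in every cell. Cell 9, a JCb5.2 cell, held the lowest value of 52 of these 74, while its gene number (6921) and its median log2(FPKM + 1) (6.48) were within the range of the other cells. The same counts over all genes found in every cell are not reported here.

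Nearly all members were found in every neuron, at high levels. At a threshold of 1 FPKM, 74 of 80 members were present in all 23 cells, 43 of 49 for the large subunit and 31 of 31 for the small subunit, where 7.20% of all genes in the table were. The members' median FPKM, taken over cells and then over genes, was 621, against 87.0 for the 1685 genes found in every cell and 0.00953 for all genes. A median of at least 100 FPKM was reached by 72 of 80 members and by 767 of all 23400 genes. One of at least 1000 FPKM was reached by 20 members, which were 35.1% of the 57 genes at that level. In each cell the 80 genes together held between 5.12% (cell 9) and 24.3% (cell 17) of the summed FPKM, with a median of 12.3%. The share ran from 10.6% to 24.3% in JCb6 cells and from 5.12% to 16.6% in JCb5.2 cells; without cell 17 the JCb6 cells reached 16.7%, and without cell 9 the JCb5.2 cells began at 9.19%. The 2 sets of cells overlapped, and both had a median of 12.3%.

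**Figure D1:**
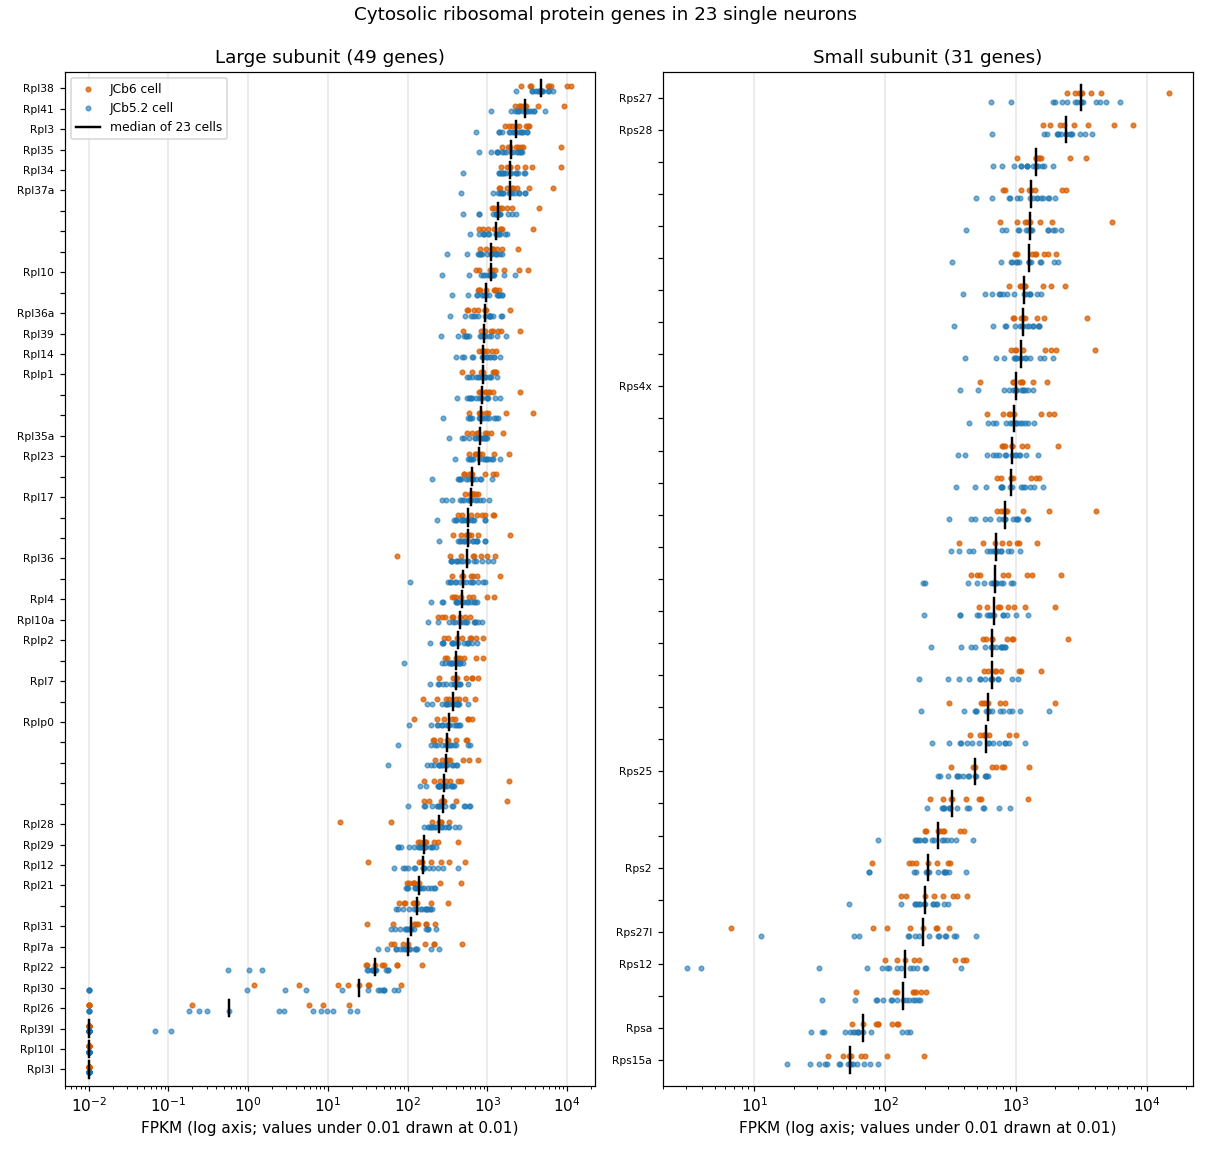
FPKM (log axis) of each of the 80 ribosomal protein genes in each neuron, large subunit on the left and small subunit on the right, ordered by median, with labels for genes named in the text; orange points are JCb6 cells, blue points JCb5.2 cells and black bars the median of 23 cells. A median of at least 100 FPKM is reached by 72 of these 80 genes (and by 767 of all 23400 genes). The medians of Rpl30, Rpl26, Rpl39l, Rpl10l and Rpl3l lie below those of all others, while single cells of Rpl30 and Rpl26 overlap other genes.

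Rpl38, Rps27 and Rpl41 led the order of levels. Rpl38, a large-subunit protein needed for the translation of Hox mRNAs in mouse embryos, had the highest median, 4663 FPKM (lowest 2274 FPKM in cell 9, highest 11279 FPKM in cell 17). Rps27, a zinc finger protein of the small subunit, followed with 3137 FPKM (645 to 14880 FPKM), and Rpl41, a very short basic peptide of the large subunit, with 2959 FPKM (1118 to 9175 FPKM). The ranges of these 3 genes overlapped widely. Next were Rps28 (median 2421 FPKM), Rpl3 (2261 FPKM), which helps to form the peptidyl transferase centre, Rpl35 (1973 FPKM), which lies at the exit of the peptide tunnel, Rpl34 (1926 FPKM) and the zinc finger protein Rpl37a (1895 FPKM). Each of these 8 genes was lowest in cell 9 and highest in cell 17.

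At the low end were paralogs and a few main members. Rps15a of the small subunit had a median of 54.0 FPKM (17.7 to 197 FPKM), and Rpsa, a small-subunit protein also known as the laminin receptor precursor, 67.3 FPKM (27.2 to 155 FPKM). Among the 74 members found in every cell, the highest median was 86.4-fold the lowest. Rpl22, an RNA-binding protein of the large subunit, was at or above 1 FPKM in 22 cells with a median of 39.2 FPKM (0.551 FPKM in cell 10 to 149.99 FPKM in cell 17). Rpl30, which in yeast binds its own pre-mRNA, was so in 19 cells, with a median of 24.8 FPKM and a range of 5.96e-06 to 82.5 FPKM. Rpl26, which is known to bind p53 mRNA, was so in only 11 cells, with a median of 0.580 FPKM and a range of 4.88e-08 to 22.9 FPKM. The smallest of these values are far below the worth of a whole read, so the assignment of reads to Rpl30 and Rpl26 is uncertain.

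The genome holds many processed copies of these genes, and reads shared with a copy can be split in ways the table does not record. At least 1 near-identical copy (95% identity over 90% of the coding sequence) was found for 74 of the 80 members. Copies were searched among the annotated transcripts of GENCODE vM21, so copies without annotation were not counted. Not every copy is annotated as a pseudogene: 21 of the 23 copies of Rps12 are, and the 1 copy of Rplp2 is not. Rpl21 had 56, Rpl7a 31, Rpl29 27, Rps2 24 and Rps12 23 copies, while Rpl10a had 1. Rpl30 had 12 copies and Rpl26 had 6. Grouped after the counts were seen, the 16 members with 10 or more copies that were found in every cell had a median level of 243 FPKM, the 46 with 2 to 9 copies 839 FPKM and the 12 with at most 1 copy 567 FPKM. Over these 74 genes, Spearman's rho of the median level was -0.11 with the number of copies and -0.26 with the coding length; these are relations across genes, which are not independent. How far copies lowered any single value was not tested.

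The large-subunit genes had lower levels than the small-subunit genes in most cells. With all 80 members, the median FPKM of the large-subunit genes divided by that of the small-subunit genes was below 1 in each of the 23 cells, with a median of 0.756 (0.507 in cell 17 to 0.871 in cell 8). The large-subunit list holds the 3 paralogs that are near 0 and the 3 other genes missed in some cells. With the 74 genes found in every cell the ratio had a median of 0.835 and was above 1 in 2 cells. Over cells, the medians of these genes had a middle value of 567 FPKM for the large subunit and 691 FPKM for the small subunit.

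The stalk of the large subunit, which recruits elongation factors, is built on Rplp0 with pairs of Rplp1 and Rplp2. Rplp1 had a median of 877 FPKM (484 to 1311 FPKM), Rplp2 428 FPKM (190 to 873 FPKM) and Rplp0 327 FPKM (102 to 640 FPKM). Rplp1 thus had the highest level of the 3, with ranges that overlapped those of the other 2. Among the 74 members found in every cell, it also had the lowest spread between cells.

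Paralogs differed greatly in how far they were used. Rpl3l, the paralog of Rpl3 known from striated muscle, and Rpl10l, a paralog of Rpl10 known from male germ cells, were listed at 0 in every cell, beside medians of 2261 FPKM for Rpl3 and 1106 FPKM for Rpl10. Rpl39l, another germ cell paralog, was above 0 in 2 cells and reached 0.108 FPKM, beside 896 FPKM for Rpl39. The coding sequences of these 3 pairs were 73.9%, 84.7% and 85.0% identical.

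Rpl22l1 is outside the naming rule but belongs with Rpl22, to which its coding sequence was 70.2% identical. Its level was much the higher of the pair: Rpl22l1 had a median of 1966 FPKM (924 to 3101 FPKM), against 39.2 FPKM for Rpl22. Rpl22l1 held between 95.4% and 99.98% of the FPKM of both genes in the 23 cells, with a median of 97.9%, and its lowest value was above the highest value of Rpl22. In mice, Rpl22l1 is known to rise when Rpl22 is lost. Rpl22 was below 10 FPKM in 3 cells, with 1.02 FPKM in cell 6, 1.48 FPKM in cell 9 and 0.551 FPKM in cell 10.

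Rps27l, a paralog of Rps27 known as a p53 target gene, was found in every cell with a median of 193 FPKM (6.61 to 495 FPKM). It held a median of 6.48% of the pair, from 0.0444% in cell 17, where Rps27 was at its highest, to 23.9% in cell 6. Rpl36al had a median of 153 FPKM and 17.98% of its pair with Rpl36a (5.47% in cell 9 to 37.4% in cell 17), and these coding sequences were 87.7% identical. Rpl36al had a median share of 21.2% in JCb6 cells and 14.0% in JCb5.2 cells, and the sets overlapped. Rpl7l1, a distant paralog of Rpl7, was at or above 1 FPKM in 16 cells, with a median of 4.78 FPKM and 1.71% of its pair (0.014 to 7.95%). Its median share was 0.0738% in JCb6 cells and 2.61% in JCb5.2 cells, and the sets overlapped.

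**Figure D2:**
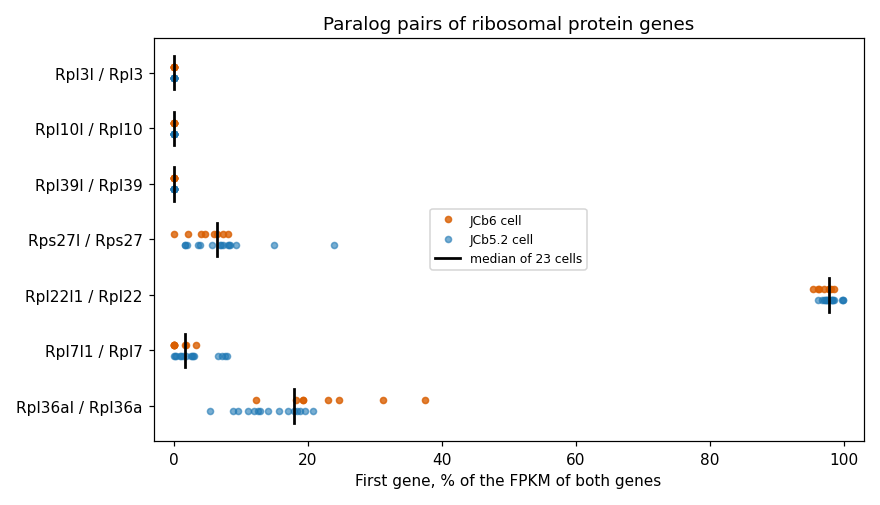
Share of the first gene in the FPKM of both genes of each paralog pair, in percent, for each neuron (orange, JCb6 cells; blue, JCb5.2 cells; black bar, median of 23 cells). Rpl22l1 holds over 95% of its pair in every cell, while Rpl3l, Rpl10l and Rpl39l lie at or near 0.

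Ribosomal protein genes varied less between neurons than other genes found in every cell. The SD over cells of log2(FPKM + 1) had a median of 0.60 over the 74 members (0.41 to 1.69), against 0.98 over the 1685 genes found in every cell, and 71 of the 74 were below this 0.98. Without cells 9 and 17 the medians were 0.45 for members and 0.77 for the 1685 genes, and 72 members were below the median of all. When each cell was centred on its median log2 over the genes found in every cell, the medians were 0.79 for members and 0.92 for the 1685 genes. The highest value of a member was 6.43-fold its lowest for the median member. Levels and spread are linked, and the members lie at the high end of levels; the part of level in the difference was not tested.

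Among these 74, the lowest spreads were those of Rplp1 (SD 0.41), Rpl14 (0.46), Rpl17 (0.46), which lines the peptide tunnel, Rpl35a (0.47), a gene mutated in Diamond-Blackfan anaemia, and Rps4x (0.48), an X-linked gene of the small subunit. Rps12 had the highest spread, 1.69, with a median of 141 FPKM, with lows of 3.89 FPKM (cell 10) and 3.04 FPKM (cell 15), while every other cell was between 30.9 and 415 FPKM. Rps27l followed with 1.47, then Rpl28 with 1.00, Rps27 with 0.88 and Rpl12, a protein at the base of the stalk, with 0.87.

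A few members ran against the rest in cell 17, where most others peaked. Of the 74, 5 (Rpl28, Rpl36, Rpl12, Rpl31 and Rps27l) had their lowest value there. The median log2(FPKM + 1) of all genes found in every cell was also lowest in cell 17 (4.88), so low values there were not particular to these 5. The share of all genes with their lowest value in cell 17 is not reported here. Rpl28 was at 14.0 FPKM in cell 17 and at 61.9 FPKM or more in the other cells, and Rpl36 at 74.01 FPKM against 344 FPKM or more. Rpl12 was at 32.0 FPKM in cell 17 against at least 67.0 FPKM elsewhere, and Rpl31 at 31.3 FPKM against at least 61.5 FPKM. Rps27l was at 6.61 FPKM in cell 17 and at least 11.2 FPKM elsewhere. Without cells 9 and 17 the SD was 0.57 for Rpl28, 0.58 for Rpl36 and 0.81 for Rps27l.

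**Figure D3:**
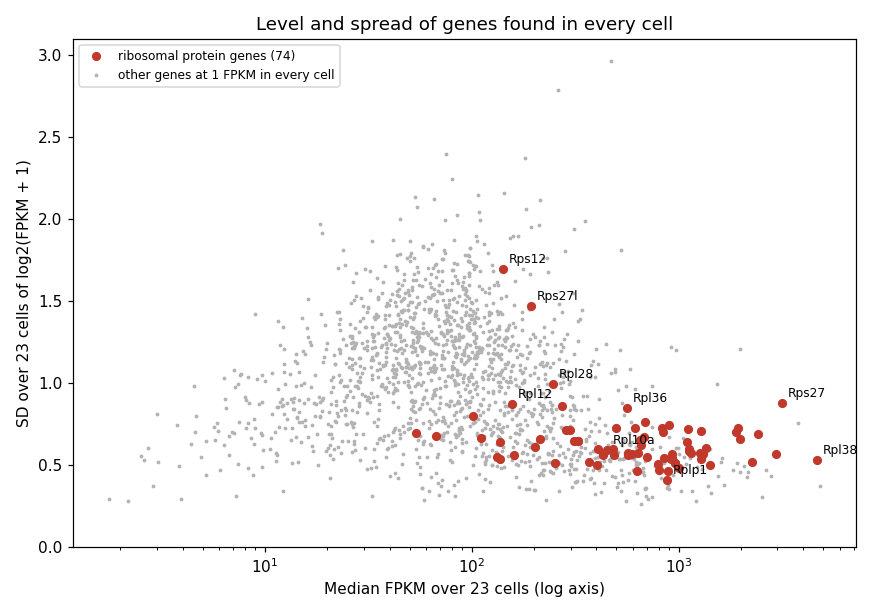
SD over the 23 cells of log2(FPKM + 1) against the median FPKM (log axis) for genes at or above 1 FPKM in every cell; red points are the 74 ribosomal protein genes and grey points the other genes. Most members lie below 0.98, and Rps12 and Rps27l lie apart at 1.69 and 1.47.

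Most members went up and down together across cells. Over the 2701 pairs of members found in every cell, the median Pearson r of log2(FPKM + 1) was 0.59, and 91.6% of pairs were above 0, against a median of 0.04 and 54.8% over all pairs of the 1685 genes. These r values rest on 23 cells that share the scale and the depth of each library across genes. After centring each cell, the medians were 0.78 for members and 0.01 for all genes; without cells 9 and 17 they were 0.41 and 0.03 uncentred, and 0.44 and -0.00 centred. Pairs within a subunit (median 0.58) and across subunits (0.60) had much the same r. The r of a member with the mean of the others had a median of 0.80, or 0.66 without cells 9 and 17, and was lowest for Rpl28 (-0.32; -0.07 without these cells). Rpl36 had an r of 0.15 with all cells and 0.86 without cells 9 and 17.

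The share of summed FPKM held by the members had r = 0.01 with relative depth over the 23 cells (Spearman's rho -0.06). Within the title sets this r was 0.18 over the 8 JCb6 cells (rho 0.48) and -0.37 over the 15 JCb5.2 cells (rho -0.51). With the number of genes at 1 FPKM the share had r = -0.69 (rho -0.48), which was -0.29 without the 2 cells farthest from the median gene number and so rests on them. With the summed haemoglobin markers r was 0.06, and with the summed neuronal markers -0.06.

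Rpl10a, the ribosomal protein carried by the GFP reporter, lies at chr17:28328471-28331033 on the plus strand (mm10). It was at or above 1 FPKM in every cell. Reads of the GFP fusion and of the endogenous gene cannot be told apart in the table. Its median over all cells was 448 FPKM. In JCb6 cells it had a lowest value of 240.4 FPKM, a median of 364 FPKM and a highest value of 613 FPKM, and in JCb5.2 cells these were 181, 510.1 and 861 FPKM. The sets overlapped, with the 5 highest of all values in JCb5.2 cells.

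This level placed Rpl10a in the lower part of the family, at rank 49 of 80. Its neighbours in the order were Rpl4 (median 483 FPKM, 196 to 1218 FPKM) above and Rplp2 (428 FPKM) below, and their ranges overlapped that of Rpl10a. Divided by the median FPKM of the other 79 members in the same cell, Rpl10a had a median of 0.704, from 0.186 in cell 17 to 1.43 in cell 13. The ratio had a median of 0.568 in JCb6 cells and 0.870 in JCb5.2 cells, and it was below 1 in 8 of 8 JCb6 cells and in 11 of 15 JCb5.2 cells. Cells without the reporter were not analysed here, so Rpl10a has no reference value from unlabelled neurons.

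**Figure D4:**
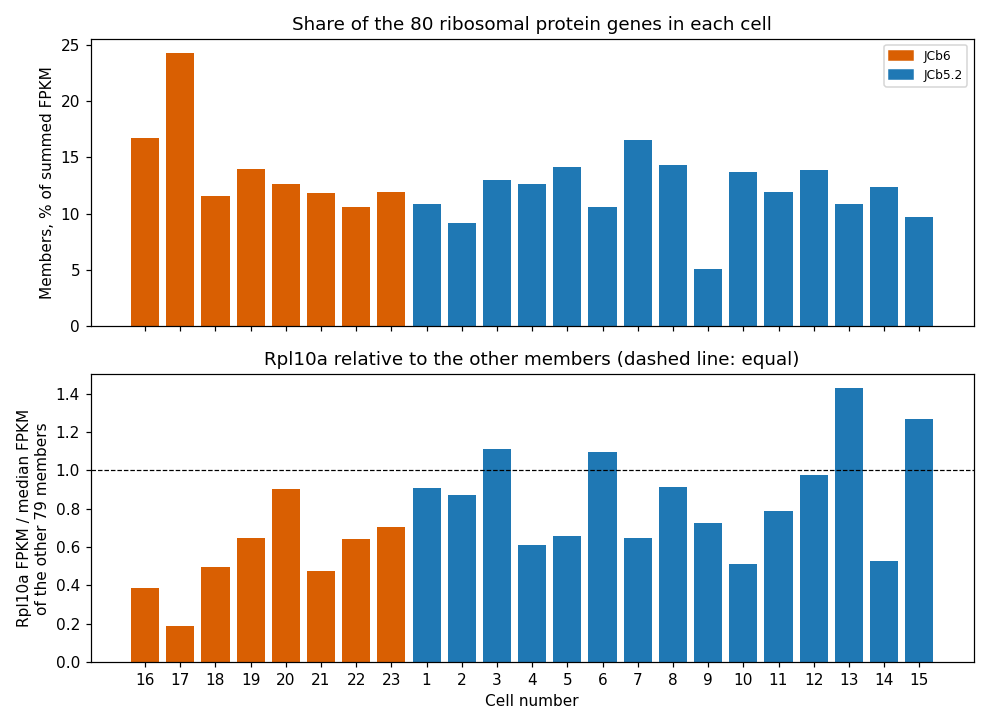
For each neuron, the share of the 80 ribosomal protein genes in the summed FPKM (top, percent) and Rpl10a FPKM divided by the median FPKM of the other 79 members (bottom; dashed line at 1); orange bars are JCb6 cells, blue bars JCb5.2 cells. The share is highest in cell 17 (24.3%) and lowest in cell 9 (5.12%), and Rpl10a is above the dashed line in 4 JCb5.2 cells.

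Rpl10a followed the other members less closely than most of them did. Its SD of log2(FPKM + 1) was 0.59, rank 40 of the 74 members, so its spread was ordinary. Its r with the mean of the other members was 0.34 over 23 cells (rho 0.28), rank 67 of 74, and 0.53 after centring, rank 66. Without cells 9 and 17 r was 0.33, rank 68, but without cell 9 alone it was 0.057 and without cell 17 alone 0.56. Within the title sets r was -0.15 over the 8 JCb6 cells and 0.70 over the 15 JCb5.2 cells. The value thus rests on single cells and sets.

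**Figure D5:**
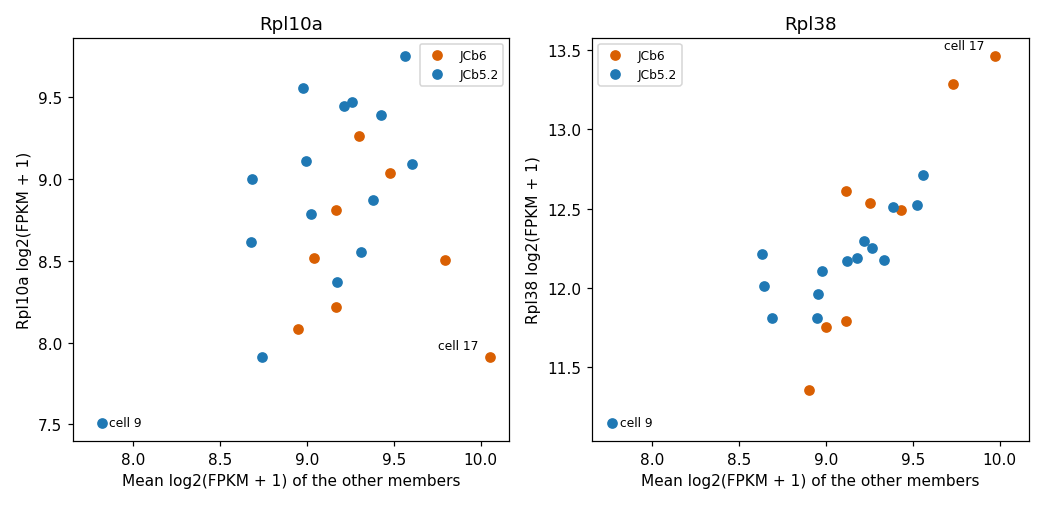
log2(FPKM + 1) of Rpl10a (left) and of Rpl38 (right) against the mean log2(FPKM + 1) of the other members found in every cell; each point is a neuron (orange, JCb6; blue, JCb5.2). In cell 17 Rpl38 is at its highest value while Rpl10a is at 240.4 FPKM, among its low values, and in cell 9 both are at their lowest.

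The genes whose pattern over the 23 cells was most like that of Rpl10a, by Pearson r of log2(FPKM + 1) among genes found in every cell, were Rps27l (0.64), Creb3 (0.64), Eif3f (0.63), Lmna (0.63) and Dpm3 (0.62). Creb3 is a membrane-bound transcription factor, Eif3f a subunit of initiation factor eIF3, Lmna encodes lamins A and C, and Dpm3 is a subunit of dolichol-phosphate mannose synthase. Without cells 9 and 17 these 5 values were between 0.39 and 0.53. After Rps27l, the members most like Rpl10a over all 23 cells were Rpl17 (0.52), Rpl36 (0.51), Rps2 (0.50) and Rpl36a (0.49). Without cells 9 and 17 these were 0.45 for Rpl17, 0.34 for Rpl36, 0.20 for Rps2 and 0.64 for Rpl36a, beside 0.39 for Rps27l. After centring, Rpl36a had 0.66 and Rps27l 0.37. The order of these members thus rests on cells 9 and 17 and on the scale. The median r of Rpl10a with the other members was 0.24, and with all genes found in every cell 0.12.

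Most members had higher means in JCb6 cells than in JCb5.2 cells, by less than 2-fold. The difference of mean log2(FPKM + 1), JCb6 minus JCb5.2, had a median of 0.32 over the 77 members found in at least 3 cells, of which 69 were higher. Over the 11697 genes so found it had a median of -0.12, and 42.1% were higher. After centring, 73 of 77 members and 52.2% of all genes were higher, with medians of 0.48 and 0.04. Without cell 17 these centred medians were 0.17 and -0.05, and 61 members and 46.4% of all genes were higher. Uncentred, the members' median without cell 17 was 0.21 and 66 were higher, beside a median of -0.01 and 49.5% higher over all these genes. Without cells 9 and 17 the members' uncentred median was 0.12 and 58 were higher, beside -0.01 and 49.3% over all these genes. The genes found in every cell had a median of -0.06 with all cells and 0.07 both without cell 17 and without the 2 cells. Much of the difference between sets thus went with these 2 cells. The summed haemoglobin markers had a median of 258 FPKM in JCb6 cells and 93.2 FPKM in JCb5.2 cells, and their part in the difference was not tested.

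Past 2-fold, 2 members were higher in JCb6 cells, against 4.92% of all genes, and none was lower, against 11.5% of all genes. Rps12 had a difference of 1.30 on the log2 scale (99.3 to 415 FPKM in JCb6 cells, 3.04 to 382 FPKM in JCb5.2 cells) and Rpl22 of 1.29 (29.9 to 149.99 FPKM in JCb6 cells, 0.551 to 57.3 FPKM in JCb5.2 cells). Both had overlapping sets, and the cells below 10 FPKM, 2 for Rps12 and 3 for Rpl22, were all JCb5.2 cells. Leaving out cells 9 and 17 gave differences of 1.21 for Rps12 and 0.85 for Rpl22. The low cells of Rps12 were not among these, but were cell 10 (3.89 FPKM) and cell 15 (3.04 FPKM). Without cell 15 alone, only 1 member, Rpl22, was past 2-fold, so the place of Rps12 past 2-fold rests on that cell. Rps12 also has 23 near-identical copies. Next were Rpl39 (0.63), which lines the peptide tunnel, and Rps25 (0.61), needed for some viral internal ribosome entry sites; without cells 9 and 17 they had 0.40 and 0.42. Lowest were Rpl28 (-0.72; -0.29 without cells 9 and 17), Rps27l (-0.51), Rpl26 (-0.50), Rpl10a (-0.35) and Rps2 (-0.14). Leaving out cells 9 and 17 gave -0.22 for Rps27l, -0.18 for Rpl26, -0.36 for Rpl10a and -0.07 for Rps2.

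Several ribosomal protein genes that the naming rule misses were also at high levels. Besides Rpl22l1, these included Fau (median 1232 FPKM), which encodes a fusion of a ribosomal protein with a ubiquitin-like protein, and Rps3a1 (511 FPKM). Of 9 listed genes outside the rule, 8 were found in every cell, and their mean log2 had r = 0.88 with that of the members (0.95 after centring, 0.74 without cells 9 and 17). The 8 include Rps19-ps3, a pseudogene copy of the member Rps19, which had the highest r (0.87). Its reads can be shared with Rps19, and the part of such reads in the r of 0.88 was not tested. Rsl24d1, which takes part in large-subunit assembly, had the lowest r of the 8, -0.01.

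Other translation genes had a lower r with the members, by an amount that depended on the scale. Of 8 elongation factor genes, 5 were found in every cell, led by Eef1a1 (median 665 FPKM), which brings aminoacyl-tRNA to the ribosome, Eef1g (347 FPKM), Eef2 (246 FPKM), which drives translocation, and Eef1b2 (101 FPKM). Eef1a1 alone had r = 0.79 with the mean of the members, and the 5 genes together 0.20, or 0.48 after centring and 0.49 without cells 9 and 17. Of 14 other genes known for TOP mRNAs, 10 were found in every cell, led by Btf3 (317 FPKM), Naca (317 FPKM), Eif3h (245 FPKM) and Eif3f (243 FPKM), and their mean had r = 0.36 (0.77 after centring, 0.26 without cells 9 and 17).

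Genes that make or control ribosomes were at lower levels. Of 21 ribosome biogenesis genes, 4 were found in every cell, and the highest medians were those of Nop10 (176 FPKM), Nop56 (146 FPKM), the rRNA methyltransferase Fbl (38.1 FPKM) and Nop58 (36.3 FPKM). Of 12 genes of mTOR control, 2 were found in every cell, Rheb (229 FPKM), the GTPase that activates mTORC1, and the cap-binding protein Eif4e (66.5 FPKM), followed by Tsc2 (11.2 FPKM) and Rptor (8.97 FPKM). Over the 4 biogenesis genes found in every cell, r of the mean log2 with that of the members was -0.09, and it was 0.33 after centring and -0.01 without cells 9 and 17. These genes did not move alike, with r = 0.32 for Nop10 and -0.24 for Nop56. Rheb (r = -0.50) and Eif4e (r = 0.54) ran in opposite directions relative to the members.

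The 76 mitochondrial ribosomal protein genes, whose proteins build a separate ribosome inside mitochondria, differed from the cytosolic set in level and spread. Their medians had a middle value of 35.0 FPKM, and 27 of 76 were found in every cell, led by Mrpl33 (297 FPKM), Mrpl52 (279 FPKM), Mrps21 (243 FPKM) and Mrpl20 (232 FPKM). Those 27 had a median SD of 1.34, against 0.60 for the 74 cytosolic genes. The mean log2 of the 27 had r = -0.05 with that of the cytosolic members, 0.13 after centring and 0.21 without cells 9 and 17.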

How the data were processed

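Polyadenylated RNA of each neuron was amplified by SmartSeq2, and the NuGen Ovation Rapid kit gave the libraries, per the labels' protocols. The submitters' processing notes name CASAVA 1.8, TopHat and Cufflinks and the build mm10; of TopHat, Cufflinks and the annotation, the version is not given in the sources used here. FPKM per gene and cell are the deposited values; 12 leftover spreadsheet rows, whose values are of another kind, were left out. SmartSeq2 has no molecular identifiers, so amplified copies count as reads, and FPKM is relative: a few abundant transcripts lower all others in a cell.

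Of 23896 rows, 286 identical copies were dropped and rows of 124 symbols were summed. Locus starts count from 0 (start 1 lower and end equal for 9293 of 21479 genes) and are printed from 1. Strand, coding sequences and copies come from the annotation and transcripts of GENCODE vM21 on mm10 (blastn 2.17.0), and paralog identity is that of the coding sequences. Another 27 rows with gene names turned into dates were kept without a name. Log values are log2(FPKM + 1). Centring subtracts each cell's median over genes at 1 FPKM in every cell. Differences are JCb6 minus JCb5.2. Relative depth was read from the steps between low values.

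Nothing was tested: cells are not replicates, and no p-value was computed. Members and lists were chosen with earlier results of these data known. Named are Rpl10a, the 8 highest and 8 lowest medians, the 5 highest and 5 lowest SDs, paralogs, stalk genes, the 5 largest differences each way, the 5 closest to Rpl10a, and up to 4 genes per list, of which a few are not reported here; Rpl36 and Rpl31 were added after their values were seen, as were leaving out cells 9 and 17 and the groups by copies. Rps4l, Rack1 and Rpl13a-ps1 were not analysed here under those symbols. The scripts were tested on simulated data. Software was pandas 2.3.3, biopython 1.88, numpy 2.4.6, matplotlib 3.10.9 and scipy 1.17.1 under Python 3.11.15.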

Additional observations from a re-analysis of the deposited data

How the results depend on the processing

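Thresholds, pseudocounts, rescaling, centring, each title set alone and leaving out each cell were tried. Of the recomputed values, 508 moved by less than the spread of their result, or by at most 1.5 times for counts. Another 10 moved by more and 1 changed sign. The 508 include the paralog shares of Rpl3l and Rpl10l, which are 0 in every cell and could not move. The spread was taken between cells for levels, shares, ratios and ranks. For the median SD and the r values it was taken between members or pairs of members, which is wide. The median pairwise r, 0.59, was thus counted as unmoved at 0.78 with centred cells and at 0.41 without cells 9 and 17. The median member level was 1240 FPKM when each cell was rescaled to 1000000, and the median SD was 0.79 with centred cells. The r of Rpl10a with the other members was -0.15 in JCb6 cells only, a change of sign, 0.70 in JCb5.2 cells only and 0.057 to 0.56 when a cell was left out. Members over 2-fold lower in JCb6 cells numbered 1 at a pseudocount of 0.1. Those over 2-fold higher numbered 1 at a pseudocount of 10, among genes at 1 FPKM in every cell only, and without cells 9 and 17, and 1 to 2 when a cell was left out. TOP starts were 46.7% with a tract up to 5 bases either side. Leaving out a cell gave 74 to 75 members in every cell, a median level of 617 to 625 FPKM, a share of 12.1 to 12.5%, a large over small ratio of 0.753 to 0.762, an SD of 0.53 to 0.61, a pairwise r of 0.49 to 0.61, and Rpl10a at rank 49 to 50 and at 0.682 to 0.715 of the others' median. Depth limits the low members most: no absolute depth is known, and near-identical copies make single levels uncertain. No paired analysis was possible because the cells form 1 group and their numbers pair nothing.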

Other observations

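Introns of ribosomal protein genes house many small nucleolar RNAs (snoRNAs), which guide the modification of ribosomal RNA. The table lists 108 snoRNA rows, and 30 of them lie within the loci of 21 members. Of these 30, 10 were listed at 0 in every cell, 19 had a value of 1 FPKM or more somewhere, and only 1 had it in 12 cells or more. That one was Snora21, inside Rpl23, found in 16 cells, 6 of 8 JCb6 cells and 10 of 15 JCb5.2 cells. Snora64, inside Rps2, was found in 8 cells. These snoRNAs were named after their values were seen. Their loci are short, so FPKM turns very few fragments into large values, and reads of a snoRNA cannot be told apart here from intron reads of its host gene.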
